A study of Raphanus sativus with 9 samples.

Results

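A group of 32 of the 64657 annotated radish genes is described here. Other genes with a like fall in the cold did not meet the further limits given below. In the 32 genes, expression fell at least 8-fold during vernalization. After the plants had returned to warmth, it stayed between 0.5 and 2 times that low level. The members were chosen by their own values in these libraries. Expression was taken as CPM, the counts of a gene scaled to 1000000 counts on all genes of the library, and 0.1 CPM was added to each group mean. A gene was selected when its mean before vernalization was at least 10 CPM, its means during and after vernalization were each at most 1/8 of that value, and the mean after vernalization lay between 0.5 and 2 times the mean during vernalization. The genes RSG30297 and RSG30298 have consecutive identifiers and are both homologs of the myrosinase gene *TGG2*. They also met these limits and were left out of the group by name. The levels of the 32 genes at the 3 time points are therefore a description, and counts of calls given for them show no more than the choice itself.

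The plants were radish (*Raphanus sativus*) of the cultivar Taebaek without any introduced allele, and mRNA was sequenced at 3 time points with 3 biological replicates each. NV plants were 4 weeks old and had been kept in a greenhouse without cold, V plants were 8 weeks old and had spent 4 weeks in a cold room under short days, and AV plants were 10 weeks old and had been kept warm in the greenhouse for 2 weeks after the 4 weeks of cold. Age, day length, and cold thus cannot be told apart, and plants of 8 or 10 weeks without cold were not analysed here. The sample labels name leaf and roots in one field and whole seedlings in another, and RNA from leaves and RNA from roots cannot be told apart. In such bulk tissue, fewer cells of a type and less RNA per cell cannot be told apart either. Markers of leaf, root, or any cell type could not be checked, because the files list genes by RSG identifiers without names or positions.

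The counts of AV-2 and AV-3 were equal for all 32 members and differed in 376 of all genes, so AV-3 was not used, which left 8 libraries (n = 3 in NV and V, n = 2 in AV). The libraries had 21119531 to 27606212 counts on genes, and 4.27% to 8.89% of the reads in the count files were not assigned to a gene. The detection floor, set at 3 counts per library, lay at 0.109 to 0.142 CPM, which covers counting error only.

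Vernalization is the long exposure to cold after which many Brassicaceae plants become able to flower. In *Arabidopsis*, the floral repressor gene *FLC* is turned off during the cold and stays off in the warmth that follows, and the repressive histone mark H3K27me3 on its chromatin keeps this state through cell divisions. A fall in the cold that is kept afterwards is therefore the pattern known for *FLC*, but the radish homologs of *FLC* could not be looked up among these identifiers, and no histone mark was among the files analysed here. Of the 32 genes, 1 carries a name, because the study's gene list holds 94 identifiers (2 of them under the symbol *RsTGG2a*) of genes for glucosinolates, the sulfur-containing defense compounds of this plant family. This gene is RSG30299 (*RsTGG1c*), a homolog of *Arabidopsis TGG1*. TGG1 and TGG2 are myrosinases, the enzymes that cleave glucosinolates into toxic products when tissue is damaged.

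Together the 32 genes were a small part of the transcriptome that became much smaller. They took up 0.432%, 0.482%, and 0.416% of the counts on genes in the NV libraries, 0.0246%, 0.0234%, and 0.0247% in the V libraries, and 0.0241% and 0.0249% in the AV libraries. The mean share was 0.444 ± 0.0346% in NV (SD, n = 3), 0.0242 ± 0.000686% in V (SD, n = 3), and 0.0245 ± 0.000522% in AV (SD, n = 2). The V and AV libraries overlapped in this share, while every NV library lay far above them. These reads were unevenly spread over the members. RsTGG1c alone gave 27.2% of the CPM of the group in NV, the 3 genes with the most reads 55.3%, and the 5 with the most reads 71.3%. CPM is not divided by gene length, so an order of genes by CPM is an order of reads and not of transcripts.

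Mean levels of the members lay between 10.9 and 1207 CPM in NV (median 28.4), between 0.0271 and 81.2 CPM in V (median 1.62), and between 0 and 99.1 CPM in AV (median 1.54). The fold by which V was lower than NV lay between 8.21 and 259 with a median of 18.5, and that by which AV was lower than NV lay between 9.05 and 163 with a median of 17.7, where folds against a group at the floor are lower bounds. More than 16-fold lower levels were found for 19 members in V and for 17 in AV, and more than 100-fold lower levels for 4 in V and 6 in AV. For each of the 32 genes, the lowest NV library was at least 5.59 times the highest library of V and AV. All NV libraries were above all V and AV libraries in 14% of the 32043 genes with sufficient counts, and the choice of the members made this nearly certain for them. On the log2 scale of the mean CPM plus 0.1, the median of the members was -4.14 for V over NV and -4.08 for AV over NV, beside -0.04 and 0.05 over all 15388 genes with an NV mean of at least 10 CPM by the same rule. Both ratios share the NV libraries. The heatmap of the members by library shows this drop.

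**Figure D1:**
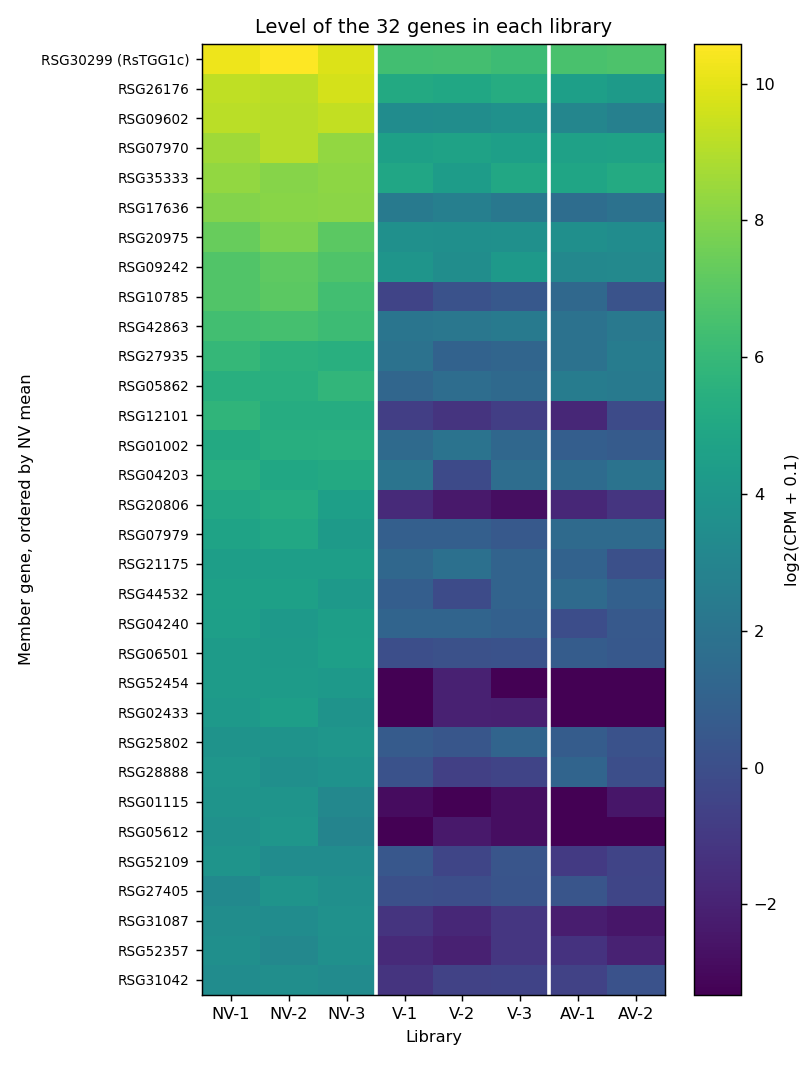
Level of each of the 32 genes (rows, ordered by NV mean) in each of the 8 libraries (columns, NV, V, and AV), as log2 of CPM plus 0.1 in color. Every gene is brighter in the 3 NV libraries than in any V or AV library, and 4 genes in the lower part are at or below 3 counts in all V and AV libraries.

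*RsTGG1c* had the most reads of the members. It had 1176, 1529, and 915 CPM in NV libraries, 81.5, 87.2, and 75.0 CPM in V libraries, and 96.3 and 102 CPM in AV libraries. The level was 14.9-fold lower in V and 12.2-fold lower in AV than in NV. The AV libraries were slightly above all V libraries, an order also found in 32.1% of the 32043 genes with sufficient counts. This difference between AV and V was not called (Benjamini-Hochberg adjusted p of 0.4186 in edgeR's quasi-likelihood test). The gene was thus lowered strongly but was far from silent, with 1668 to 2249 counts in each V library and 2511 and 2620 counts in the AV libraries.

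The other 4 of the 5 genes with the most reads carry no name. RSG26176 had 618, 570, and 830 CPM in NV libraries, 34.6, 30.7, and 38.2 CPM in V libraries, and 23.0 and 19.3 CPM in AV libraries. RSG09602 had 557, 536, and 624 CPM in NV libraries, 10.8, 11.2, and 12.8 CPM in V libraries, and 8.17 and 6.49 CPM in AV libraries. Both genes were thus lower still in AV than in any V library, and their levels were 19.5-fold and 49.3-fold lower in V and 31.8-fold and 78.0-fold lower in AV than in NV. RSG07970 had 383, 537, and 324 CPM in NV libraries, 23.7, 25.9, and 22.6 CPM in V libraries, and 24.8 and 25.7 CPM in AV libraries. RSG35333 had 325, 266, and 302 CPM in NV libraries, 29.3, 20.7, and 31.8 CPM in V libraries, and 29.0 and 35.8 CPM in AV libraries. In these 2 genes the V and AV libraries overlapped, and RSG35333 had the smaller drop, 10.9-fold lower in V and 9.18-fold lower in AV than in NV.

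Complete loss of reads was the exception. At most 3 counts in every V and AV library were found for 4 members, all of them with an NV mean under 20 CPM. RSG52454 had 519, 412, and 443 counts in NV libraries, 0, 3, and 0 counts in V libraries, and no counts in AV libraries. It was at least 147-fold lower in V and at least 163-fold lower in AV than in NV, with the floor taken per library. RSG02433 had 452, 477, and 354 counts in NV libraries, 0, 3, and 3 counts in V libraries, and no counts in AV libraries. The drop of RSG02433 was at least 139-fold in V and at least 155-fold in AV. RSG01115 and RSG05612 had 193 to 377 counts in NV libraries and at most 2 counts in any V or AV library. RSG01115 was at least 98.5-fold lower in V and at least 109-fold lower in AV than in NV, and RSG05612 at least 93.9-fold and at least 104-fold.

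RSG20806 had the largest measured fold in V, where it was above the floor in a single library. It had 853, 789, and 573 counts in NV libraries, 6, 2, and 1 counts in V libraries, and 5 and 9 counts in AV libraries. This was 259-fold lower in V and 114-fold lower in AV than in NV, with few counts behind both ratios. RSG31087 was at the floor in AV only, with 11.2, 10.9, and 12.9 CPM in NV libraries, 0.326, 0.189, and 0.360 CPM in V libraries, and 0.115 and 0.0778 CPM in AV libraries. It was 40.0-fold lower in V and at least 101-fold lower in AV than in NV.

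The size of the drop was similar among members with many and with intermediate reads. The 9 genes with at least 100 CPM in NV were lower by a median of 17.2-fold in V and 16.4-fold in AV, and the 12 genes with 20 to 100 CPM by 17.0-fold and 14.8-fold. The 11 genes below 20 CPM had medians of 40.0-fold in V and 48.7-fold in AV, computed with the lower bounds. All members at the floor were among these 11 genes.

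Most genes with a drop in the cold did not meet the limits set for the level after it. Of the 15388 genes with at least 10 CPM in NV, 110 (0.715%) were at most 1/8 of their NV level in V, and 57 of these 110 genes (51.8%) were at most 1/8 in AV as well. In the other 53 genes the AV level was above 1/8 of NV, in 13 of them at least at 0.5 times NV and in 3 at or above NV. Over the 110 genes, the median AV level was 12.0% of NV. At most 1/8 of NV in AV was found for 202 genes (1.31%), and the same 57 genes were 28.2% of these. Among the 57 genes, AV was less than 0.5 times V in 15, more than 2 times V in 8, and between these limits in 34, which are the 32 members and the RSG30297 and RSG30298 pair. The members were 0.208% of the genes with at least 10 CPM in NV. A further 80 genes met both 1/8 limits from an NV level below 10 CPM and were not selected.

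**Figure D2:**
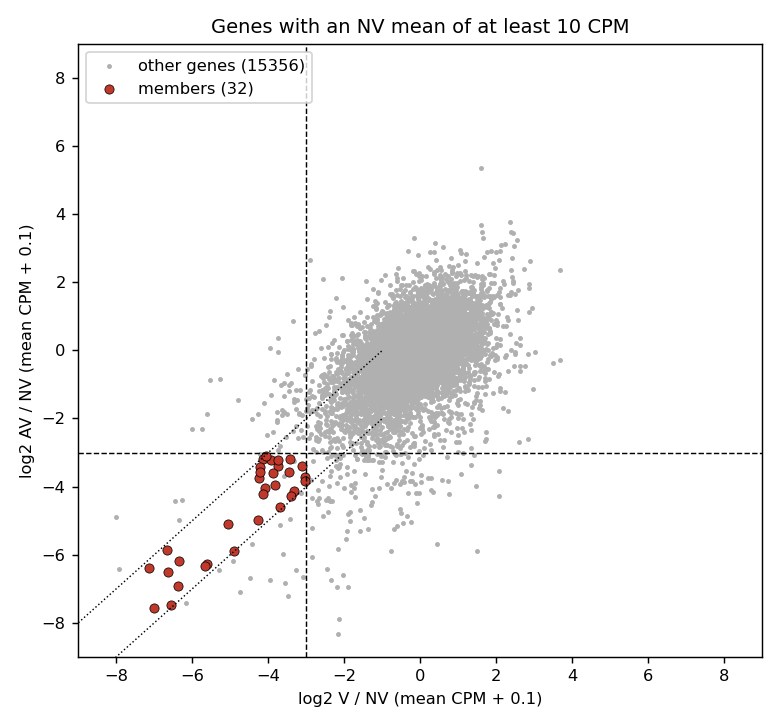
Log2 ratio of V over NV (horizontal axis) and of AV over NV (vertical axis), from mean CPM plus 0.1, for each of the 15388 genes with an NV mean of at least 10 CPM by the rule. Dashed lines mark 1/8 of NV and dotted lines AV at 0.5 and 2 times V; the 32 members fill the corner these lines enclose, and most other genes lie around 0 on both axes.

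Some members lay close to the limits. RSG21175 was just inside the limit in V, at 0.123 of NV, and RSG07664 just outside at 0.137. RSG28888 was just inside the limit in AV, at 0.117 of NV, and RSG05162 just outside at 0.131. The lowest accepted NV level was that of RSG31042, at 10.96 CPM with the offset, and RSG13581 was left out at 9.17 CPM. For AV over V, RSG31087 was just inside the lower limit at 0.501 and RSG07662 just outside at 0.478, while RSG05862 was just inside the upper limit at 1.95 and RSG44937 just outside at 2.03. RSG44937 had more reads than any member, with means of 1679 CPM in NV, 95.3 CPM in V, and 193 CPM in AV, so a gene with many reads was left out by a narrow margin.

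Each library was also read by a rule that had not used it. When the genes were selected without that library, 26 of 27 genes were at most 1/8 of the NV mean in V-1, 28 of 31 in V-2, 28 of 30 in V-3, 29 of 33 in AV-1, and 27 of 27 in AV-2. The highest level of a gene so selected was 20.2% of the NV mean, in V-2. At least 8 times both the V mean and the AV mean was found for 30 of 32 genes in NV-1, 30 of 31 in NV-2, and 29 of 36 in NV-3, where the lowest was at 3.24 times the V mean. In every reading, the means set against the left-out library came from libraries that had chosen the genes. These counts are therefore a description and no independent test. RSG09242, named here after its values were seen, fell outside in 4 of these 8 readings. It had 110, 142, and 109 CPM in NV libraries, 15.4, 11.2, and 17.3 CPM in V libraries, and 8.79 and 9.37 CPM in AV libraries, which places it near the limit in V.

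For the comparison across all genes, the 8 libraries were fitted together, and 32043 genes with sufficient counts, including all 32 members, were tested with the quasi-likelihood method of edgeR and Benjamini-Hochberg adjusted p-values. A gene was called at an adjusted p under 0.05. All 32 members were called lower in V than in NV, as were 19.3% of all genes tested, and all 32 were called lower in AV than in NV, as were 19.8% of all genes tested. These contrasts were used to choose the members, so nothing is read from the counts.

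The rule also bounded the ratio of AV over V, so the values of this ratio are a description. It lay between 0.501 and 1.95 with a median of 0.963, and the AV mean was above the V mean in 15 members and below it in 17. The log2 of this ratio was under 0.5 in size in only 11 of the 32 members. The median log2 ratio was -0.05, beside 0.09 over the 15388 genes. All AV libraries lay above all V libraries in 4 members, against 32.1% of all genes tested, and below them in 10 members, against 27.4% of all genes tested, and the libraries overlapped in 18 members. RSG05862, near the upper limit, had 5.53 and 4.94 CPM in AV libraries, against 2.32, 3.03, and 2.56 CPM in V libraries. In the edgeR fit, 9 members were called lower in AV than in V, beside 16.9% of all genes tested, and 2 were called higher, beside 14.7% of all genes tested. The 11 calls fell to 7 without NV-1 or without V-3, with 6 lower and 1 higher in each of these fits. With AV-1 or AV-2 left out, AV had 1 library, which was assumed to vary like those of the other groups. Calls were then fewer still, and without AV-2 most of them were in the higher direction. Nothing is read from these counts, since the same libraries set the ratio.

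Before vernalization the members varied among replicates about as much as other genes. The coefficient of variation among the 3 NV libraries lay between 1.46% and 34.3% with a median of 16.1%, beside 14.9% over the 15388 genes. NV-2 was highest and NV-3 lowest in 12 members (37.5%), the order that was also the most frequent among the 15388 genes (29.0%). RsTGG1c and RSG07970 both had this order. At the other end, RSG21175 had nearly equal NV libraries, with 22.3, 21.7, and 22.2 CPM.

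To see which members moved most like *RsTGG1c*, the CPM of each gene was expressed as a percentage of the CPM of *RsTGG1c* in the same library, and the highest of the 8 percentages was divided by the lowest. The steadiest was RSG07970, at 25.2% to 35.5% of *RsTGG1c*, a range of 1.41 times. RSG20975, named after its values were seen, followed at 10.6% to 16.4% (1.54 times), and RSG07979, also named after its values were seen, at 1.80% to 2.79% (1.55 times). The proportion still differed between time points. That of RSG07970 was 32.5% to 35.5% in NV, 29.1% to 30.2% in V, and 25.2% to 25.7% in AV, without overlap, while that of RSG20975 was lowest and that of RSG07979 highest in the AV libraries. In contrast, RSG26176 ranged over 4.79 times and RSG09602 over 10.7 times. The excluded pair ranged over 1.65 times (RSG30298) and 1.87 times (RSG30297). Among the 15356 other genes with at least 10 CPM in NV, none was as steady as the third member, but a gene without a like drop could not be, so this count describes the measure. The points share libraries and scaling, and no p is given.

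**Figure D3:**
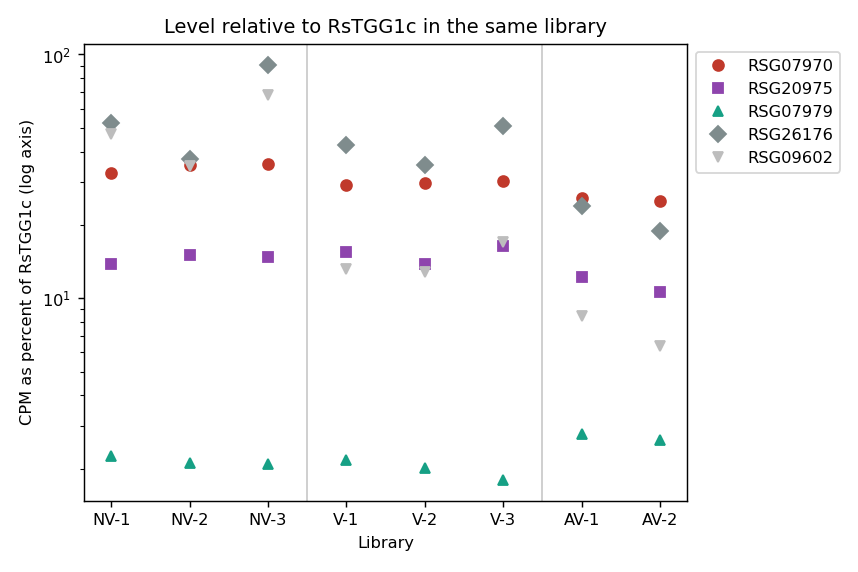
CPM of 5 members as a percentage of the CPM of *RsTGG1c* in the same library (log axis), for each of the 8 libraries. RSG07970, RSG20975, and RSG07979 stay within 1.41, 1.54, and 1.55 times across libraries, whereas RSG26176 and RSG09602 range over 4.79 and 10.7 times and are lowest relative to *RsTGG1c* in AV.

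RSG20975 had 163, 229, and 136 CPM in NV libraries, 12.6, 12.0, and 12.3 CPM in V libraries, and 11.8 and 10.8 CPM in AV libraries. RSG07979 had 26.7, 32.2, and 19.1 CPM in NV libraries, 1.77, 1.75, and 1.35 CPM in V libraries, and 2.69 and 2.68 CPM in AV libraries. Their steady ratio to *RsTGG1c* chose both genes, so a like order of their libraries is not a separate result. By their identifiers, RSG07970 and RSG07979 are 9 numbers apart, and they were the only 2 members within 10 numbers of each other. No member had an identifier next to that of another member, and *RsTGG1c* was next to the excluded pair. Whether close numbers mean close positions could not be looked up, since no positions of this annotation were at hand.

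Among the other genes of glucosinolate breakdown, the excluded pair, both listed as homologs of *TGG2*, shared the pattern of *RsTGG1c* within all limits of the rule. The remaining genes shared it only in part or went the other way. RSG30297 (*RsTGG2a*) had 322, 346, and 230 CPM in NV libraries, 29.1, 36.8, and 23.3 CPM in V libraries, and 27.1 and 35.5 CPM in AV libraries. RSG30298 (*RsTGG2a-2*) had 264, 258, and 141 CPM in NV libraries, 17.8, 19.2, and 17.9 CPM in V libraries, and 14.0 and 19.8 CPM in AV libraries. In both genes V and AV overlapped, as the rule allowed. HTSeq-count leaves out reads with several alignments unless set otherwise, and the counting mode used is not known. The values of close homologs such as these and *RsTGG1c* are therefore uncertain.

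Of the 8 further homologs of *TGG1* and *TGG2*, 5 fell and 2 rose in V relative to NV, and all 8 fell in AV relative to NV by the same edgeR test, in which 19.3% of all genes tested were called lower and 19.2% higher in V, and 19.8% lower and 17% higher in AV. *RsTGG2c* (RSG40189), with means of 42.2 CPM in NV, 3.17 CPM in V, and 1.10 CPM in AV, was below 1/8 of NV at both time points but fell outside the group because AV was under 0.5 times V. *RsTGG1d* (RSG33328) had 685, 769, and 756 CPM in NV libraries, 119, 155, and 129 CPM in V libraries, and 190 and 195 CPM in AV libraries. This homolog was lower at both time points without reaching 1/8, with a log2 ratio of -2.48 ± 0.17 (SE) in V over NV and of -2.02 ± 0.19 (SE) in AV over NV (Benjamini-Hochberg adjusted p of 2.938e-08 and 1.005e-06 in edgeR's quasi-likelihood test). *RsTGG1a* (RSG23127) was lower in V and lower again in AV, with means of 594 CPM in NV, 230 CPM in V, and 80.1 CPM in AV.

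Other *TGG1* homologs were not lower in the cold at all. *RsTGG1e* (RSG36879) had 77.1, 81.8, and 84.5 CPM in NV libraries, 185, 193, and 196 CPM in V libraries, and 26.6 and 28.0 CPM in AV libraries. Its log2 ratio was 1.21 ± 0.14 (SE) in V over NV and -1.66 ± 0.17 (SE) in AV over NV (Benjamini-Hochberg adjusted p of 8.555e-06 and 2.087e-06 in edgeR's quasi-likelihood test). *RsTGG1f* (RSG40666) likewise rose in V and fell in AV relative to NV, with means of 7.03 CPM in NV, 29.6 CPM in V, and 1.31 CPM in AV. *RsTGG1b* (RSG25390) averaged 25.5 ± 0.924 CPM in V, against 22.0 ± 5.28 CPM in NV (SD, n = 3 each), a difference that did not pass the test (Benjamini-Hochberg adjusted p of 0.5286 in edgeR's quasi-likelihood test). In the AV libraries it had 0.998 and 2.10 CPM. The drop of *RsTGG1b* was therefore measured after the cold and not during it.

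The 4 homologs of *PEN2* and *PEN3* went the other way. In *Arabidopsis*, PEN2 is an atypical myrosinase that acts on indole glucosinolates, and PEN3 is a transporter of the plasma membrane, both needed for defense against fungi. Of these 4 genes, 3 were higher in V and 4 higher in AV than in NV by the same edgeR test. *RsPEN2* (RSG16059) had 424 and 414 CPM in AV libraries, against 152, 153, and 173 CPM in NV libraries, a log2 ratio of 1.31 ± 0.17 (SE; Benjamini-Hochberg adjusted p of 1.796e-05 in edgeR's quasi-likelihood test). *RsPEN3a* (RSG17445) had a log2 ratio of 2.46 ± 0.30 (SE) in AV over NV (Benjamini-Hochberg adjusted p of 1.183e-05 in edgeR's quasi-likelihood test), with 408 and 668 CPM in AV libraries, against 105, 48.7, and 120 CPM in NV libraries.

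**Figure D4:**
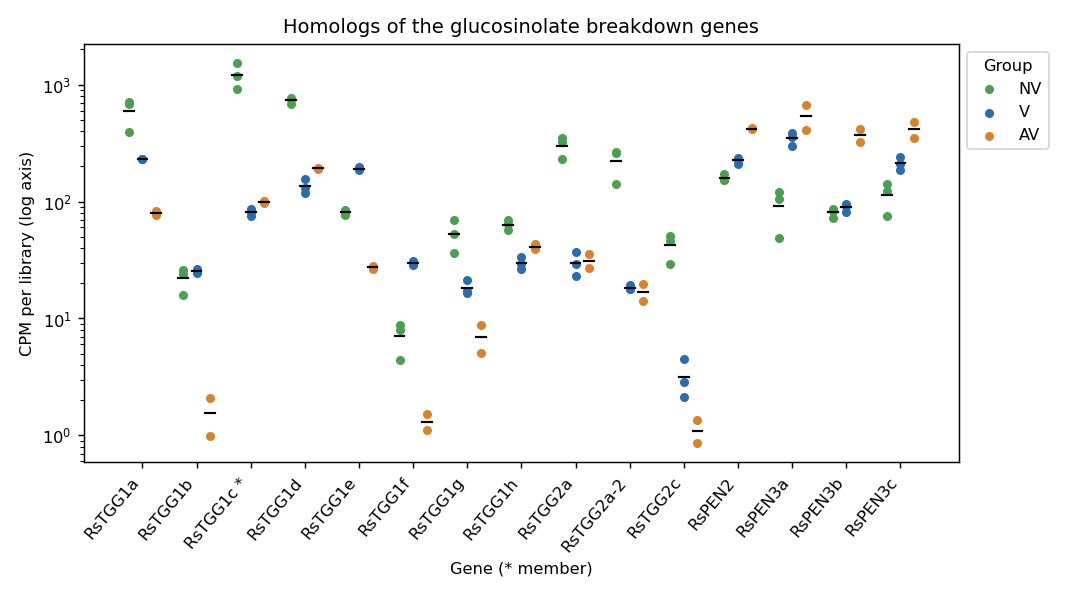
CPM in each library (log axis, dots; bars are group means) of the 15 listed homologs of *TGG1*, *TGG2*, *PEN2*, and *PEN3* in NV, V, and AV. *RsTGG1c* (asterisk) and both *RsTGG2a* genes are low in V and AV alike, *RsTGG1e* and *RsTGG1f* are highest in V, and *RsPEN2* and the *RsPEN3* genes are highest in AV.

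The wider glucosinolate list was counted in the same way, beside the shares of 0.715% at most 1/8 of NV in V and 1.31% in AV over all genes with at least 10 CPM in NV. Of the 94 listed identifiers, 54 had at least 10 CPM in NV, 4 of these were at most 1/8 of NV in V, 10 were at most 1/8 in AV, and 4 at both time points, namely *RsTGG1c*, the excluded pair, and *RsTGG2c*. Among the listed genes other than *RsTGG1c* and the pair, 84 were tested, of which edgeR called 25 lower and 21 higher in V, and 46 lower and 12 higher in AV, each relative to NV. Against the shares over all genes tested (19.3% lower and 19.2% higher in V, 19.8% lower and 17% higher in AV), the lower calls in AV were more than a like share, and the higher calls in AV were near it. In the aliphatic pathway, 9 of 19 tested genes of core structure formation were lower and 1 was higher in V, and 17 of 19 were lower in AV, and 3 of 10 genes of side-chain elongation were lower in V and 8 of 10 in AV. Of the aliphatic genes of secondary modification, 4 of 8 were lower and 2 of 8 higher in V, and 2 were lower and 1 higher in AV. In the indolic pathway, 1 of 11 genes of core structure formation was lower and 2 were higher in V, and 2 were lower and none higher in AV. Of the 12 indolic genes of secondary modification, 3 were lower and 4 higher in V, and 4 were lower and 3 higher in AV. Of the 7 indolic transcription factor genes, none was lower and 3 were higher in V, and 1 was lower and 3 were higher in AV. Of the 5 aliphatic transcription factor genes, 4 rose and none fell in V, and 1 rose and 4 fell in AV, relative to NV.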

How the data were processed

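From stranded mRNA libraries, the authors deposited raw counts of reads per gene that had not been normalized. They had trimmed the reads, mapped them with Tophat2 to the radish genome of the Nodai database, and counted them with HTSeq-count. The strand setting and counting mode are not given in the sources used here. Rows with totals of unassigned reads (4.27% to 8.89% of a library) were left out of library sizes and tests. Groups and replicate numbers came from the sample labels.

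CPM was computed in Python 3.11.15 with pandas 2.3.3 from the counts on 64657 genes of 8 libraries. AV-3 was left out as a near-duplicate of AV-2. The edgeR fit (version 4.0.16 under R 4.3.3) used TMM normalization, filterByExpr, glmQLFit with robust estimation, and glmQLFTest, with Benjamini-Hochberg adjustment over 32043 genes, and was tested on simulated data. DESeq2 1.42.0 was an alternative. Other alternatives were library totals and DESeq2's size factors, other filters, offsets, and limits of the rule, a replicate block, and each library left out in turn. With n = 3 against 3 or 2, single-gene tests rest on the spread that edgeR shares across genes. The SE of a log2 ratio was not taken from the model. It was calculated back, as the size of the log2 ratio divided by the square root of the F statistic of the quasi-likelihood test.

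The members and lists were chosen with earlier results of these data known. Named genes are the listed glucosinolate member, the 5 members with the highest NV mean, the 5 with the largest drop, and the genes beside each limit; others are marked in the text, and the breakdown homologs are named from the study's list. None of the RSG identifiers matched the RefSeq table for radish (0 matches), so no sequence is given.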

Additional observations from a re-analysis of the deposited data

How the results depend on the processing

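All 32 members were called lower in V and in AV than in NV by edgeR under each of the 16 alternatives tried (DESeq2, likelihood ratio test, 2 scalings, no filter beyond 1 count, the replicate block, 2 treatments of AV-3, and each library left out), but these contrasts chose the members. The number selected by the rule depended on its limits: 108 genes with a fold of 4, 14 with a fold of 16, 21 with an NV minimum of 20 CPM, and 55 without a limit on AV over V. It was 33 with TMM library sizes (31 of them members), 26 with an offset of 0.01 CPM, 31 with an offset of 1 CPM (21 of them members), 34 with all 9 libraries (31 of them members), and 27 to 36 with each library left out. Members at the floor in every V and AV library numbered 0 at 1 count and 7 at 10 counts. The 11 calls between AV and V became 14 with the likelihood ratio test and ranged from 7 to 12 with an NV or V library left out. They were fewer with an AV library left out. With an offset of 1 CPM the median log2 ratio was -3.54 for V over NV and -3.56 for AV over NV, and the median for AV over NV was -4.24 (without AV-2) to -4.00 with each library left out. The median for AV over V was -0.0949 with TMM, -0.0919 with DESeq2's size factors, -0.0617 and -0.0349 with offsets of 0.01 and 1 CPM, and -0.0929 to 0.0161 with each library left out, where only the value without V-3 was above 0. The counts for *TGG* and *PEN* homologs, an alternative set added after seeing the data, stayed within 1.5 times under all 16. Of the 4 *PEN* homologs, however, the 3 called higher in V than in NV became 2 without NV-1, without NV-2, or without V-3.

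Same-numbered NV and V libraries deviated together weakly (r = 0.0514, 0.233, and 0.113, against -0.192 to 0.146 for other pairs), and not every same-numbered value was over 0.1 or the highest of its library, so the numbers were not taken as pairs; with n = 2, the deviations of the AV libraries mirror each other and were not correlated. With the replicate block, 10 members were called between AV and V (7 lower, 3 higher). Low counts limit the folds of members at the floor, and n = 2 in AV limits the comparison of AV with V.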
